A study of Mus musculus with 27 samples.

Results

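The 9 genes described here encode the proteins that hold basal epithelial cells on the basement membrane: the laminin-332 chains Lama3 and Lamb3, the integrin subunits Itga6, Itgb4, Itga3 and Itgb1, the transmembrane collagen Col17a1, and the cytoskeletal linkers Dst and Plec. They were listed by name for this shared role and are 9 of the 50559 genes in the count table of mouse thyroid gland organoids (mTGOs). The organoids were grown from thyroid cells of C57BL/6 mice aged 8 to 12 weeks, female by the study's methods, in Matrigel, a gel of mouse basement membrane proteins. Their medium held EGF, FGF2, Y27632 and B27. After 5 days they were exposed to photons at 2, 4 or 7 Gy or left non-irradiated, and RNA was collected at day 5 (non-irradiated only), day 7 and day 11. This gave 9 groups of 3 libraries, with 1 library in each group from each of 3 cultures, called mTG11, mTG12 and mTG14 in the column names. No lesion, transgene or drug separated the groups, so the irradiated groups differ from the non-irradiated ones of the same day by dose alone, and days 5, 7 and 11 differ by time in culture.

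In the GRCm39 assembly with the GENCODE vM39 annotation, Lama3 lies on chromosome 18 (chr18:12466876-12717747, plus strand, 75 exons in its canonical transcript) and Lamb3 on chromosome 1 (chr1:192890007-193027705, plus strand, 23 exons). The integrin genes are Itga6 (chr2:71575960-71689757, plus strand), Itgb4 (chr11:115865333-115899239, plus strand), Itga3 (chr11:94935296-94967682, minus strand) and Itgb1 (chr8:129411876-129460618, plus strand). Col17a1 (chr19:47634783-47680533) and Plec (chr15:76055174-76116774) lie on the minus strand, and Dst (chr1:33946918-34347742) on the plus strand. The library method reads the 3′ ends of polyadenylated RNA, and the annotated coding transcripts of Dst end in 13 separate places, those of Itga6 in 7 and those of Plec in 5. Counts of these genes therefore sum isoforms, and for Dst the epithelial BP230 form could not be told apart from the neuronal and muscle forms. The strand of counting was not given in the sources used here, and protein-coding genes overlap Itgb4 (Galk1), Lamb3 (Hsd11b1 and G0s2) and Dst (Bend6) on the opposite strand and Plec (Parp10) on the same strand.

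In a basal epithelial cell the hemidesmosome joins intermediate filaments to the basement membrane. Laminin-332, a trimer of an α, a β and a γ chain, is secreted under the cell and bound there by the integrin α6β4, whose long β4 tail is tied through plectin and the dystonin isoform BP230 to keratins 5 and 14, while collagen XVII spans the membrane beside them. The same laminin is also bound by the integrin α3β1, which connects to actin in focal adhesions rather than to keratin. Thyroid follicular cells rest on a basement membrane as well, whereas keratin-rich hemidesmosomes are best known from stratified and basal epithelia such as skin.

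RefSeq promoter windows in GRCm39, cut here to the 250 bases before a transcription start, were at hand for 5 of the 9 genes, with 8 windows in all. In the windows printed below, the Col17a1 and Dst starts lay 52 and 218 bases from the nearest GENCODE start. For Lamb3 and Itgb1 the distance was 1 base. The Col17a1 window therefore overlaps the gene as placed above. Windows of 4 genes with different courses in the data are printed 5′ to 3′ on the strand of the gene, because Lamb3 and Col17a1 fell with time whereas Itgb1 and Dst did not fall. Each window was searched on both strands for TGANTCA (the AP-1 motif), GGGCGG (the Sp1 motif) and TATAAA (the TATA box), and capitals mark every match.
Lamb3, chr1:192984052-192984301, plus strand: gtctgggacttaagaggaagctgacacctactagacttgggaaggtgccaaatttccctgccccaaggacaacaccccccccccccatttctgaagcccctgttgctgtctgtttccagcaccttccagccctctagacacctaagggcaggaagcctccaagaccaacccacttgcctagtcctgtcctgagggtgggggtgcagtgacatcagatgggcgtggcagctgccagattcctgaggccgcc
Col17a1, chr19:47680482-47680731, minus strand: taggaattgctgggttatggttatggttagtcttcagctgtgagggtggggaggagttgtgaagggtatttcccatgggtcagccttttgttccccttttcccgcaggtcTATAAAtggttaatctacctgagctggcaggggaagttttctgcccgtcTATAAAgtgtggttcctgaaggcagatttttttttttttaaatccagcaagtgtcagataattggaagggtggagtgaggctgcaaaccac
Itgb1, chr8:129411885-129412134, plus strand: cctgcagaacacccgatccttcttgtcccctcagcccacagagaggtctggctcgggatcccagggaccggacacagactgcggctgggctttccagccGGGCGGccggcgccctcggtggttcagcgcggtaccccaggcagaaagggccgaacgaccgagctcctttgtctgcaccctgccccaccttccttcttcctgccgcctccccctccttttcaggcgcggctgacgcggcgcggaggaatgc
Dst, chr1:34050426-34050675, plus strand: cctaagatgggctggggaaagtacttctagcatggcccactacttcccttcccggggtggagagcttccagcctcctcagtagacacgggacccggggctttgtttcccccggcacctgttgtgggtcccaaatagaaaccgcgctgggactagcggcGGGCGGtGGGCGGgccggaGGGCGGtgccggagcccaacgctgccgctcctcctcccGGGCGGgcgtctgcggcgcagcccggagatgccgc
The Col17a1 window held 2 TATAAA matches, the Itgb1 window 1 GGGCGG match and the printed Dst window 4 GGGCGG matches. The printed Lamb3 window held none of the 3 motifs. Among windows not printed, those of Itga3, which also fell, held 3 and 1 GGGCGG matches. The second windows of Dst (chr1:34199091-34199340) and Lamb3 held none of the 3 motifs, so GGGCGG did not follow the course of the genes. TGANTCA was in none of the 8 windows. Among 32851 mouse promoter windows of the same length, 6.75% held TGANTCA, 32.7% GGGCGG and 12.4% TATAAA, so GGGCGG was the most common of the 3, and a match is only a string of letters.

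The libraries held 2528866 to 5723150 assigned reads, so that 3 reads, the count below which a gene was taken as near 0, correspond to 0.524 to 1.19 counts scaled to 1000000 reads (CPM). All 9 genes passed the filter on low counts in every fit, and the lowest level of any of them in any library was 34.5 normalised CPM. Levels are given as CPM scaled by trimmed-mean (TMM) factors over the 27 libraries, in the order mTG11, mTG12, mTG14 wherever 3 values are listed. They are not divided by transcript length, so they are compared between groups and not between genes. The labelled tissue was checked against marker lists. Thyroid transcription factor genes were detected, with mean levels of 12.6 normalised CPM for Nkx2-1 and 29.8 for Foxe1, while Pax8 was near 0 (0.233) and Tg was low (2.68). Basal keratins were abundant, and the summed level of 6 basal epithelial genes (Krt5, Krt14, Krt15, Trp63, Ngfr and Cdh3) was 12731 ± 1033 CPM at day 5 without irradiation (SD, n = 3). In any library the 4 endothelial genes listed summed to at most 1.55 CPM, the 2 C cell genes to at most 2.78 and 8 fibroblast genes to at most 143. The 4 leukocyte genes summed to 5.81 ± 2.05 CPM at day 5 and 45.6 ± 12.7 at day 11 without irradiation (SD, n = 3). Among them Cd68 had a mean of 28.9 CPM over the 27 libraries and Ptprc 0.108. In bulk RNA, fewer cells of a type and less RNA per cell cannot be told apart.

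Without irradiation, 7 of the 9 genes fell between day 7 and day 11, and none rose. Lamb3 and Itga6 fell the most, by 1.01 and 0.96 on the log2 scale, and Lama3, Col17a1, Itga3, Itgb4 and Plec fell by 0.55 to 0.88. Itgb1, the shared β1 subunit, and Dst did not pass the test. Leaving out 1 library left 4 genes called without mTG12 at day 7 or mTG11 at day 11, 3 without mTG14 at day 11 and 5 to 7 otherwise. The median log2 fold change of the 9 genes was -0.64, against 0.0030 over all 18442 genes tested. Of all tested genes 21.2% were called in this comparison, 11.7% as lower, by edgeR's quasi-likelihood test at a Benjamini-Hochberg adjusted p under 0.05.

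**Figure D1:**
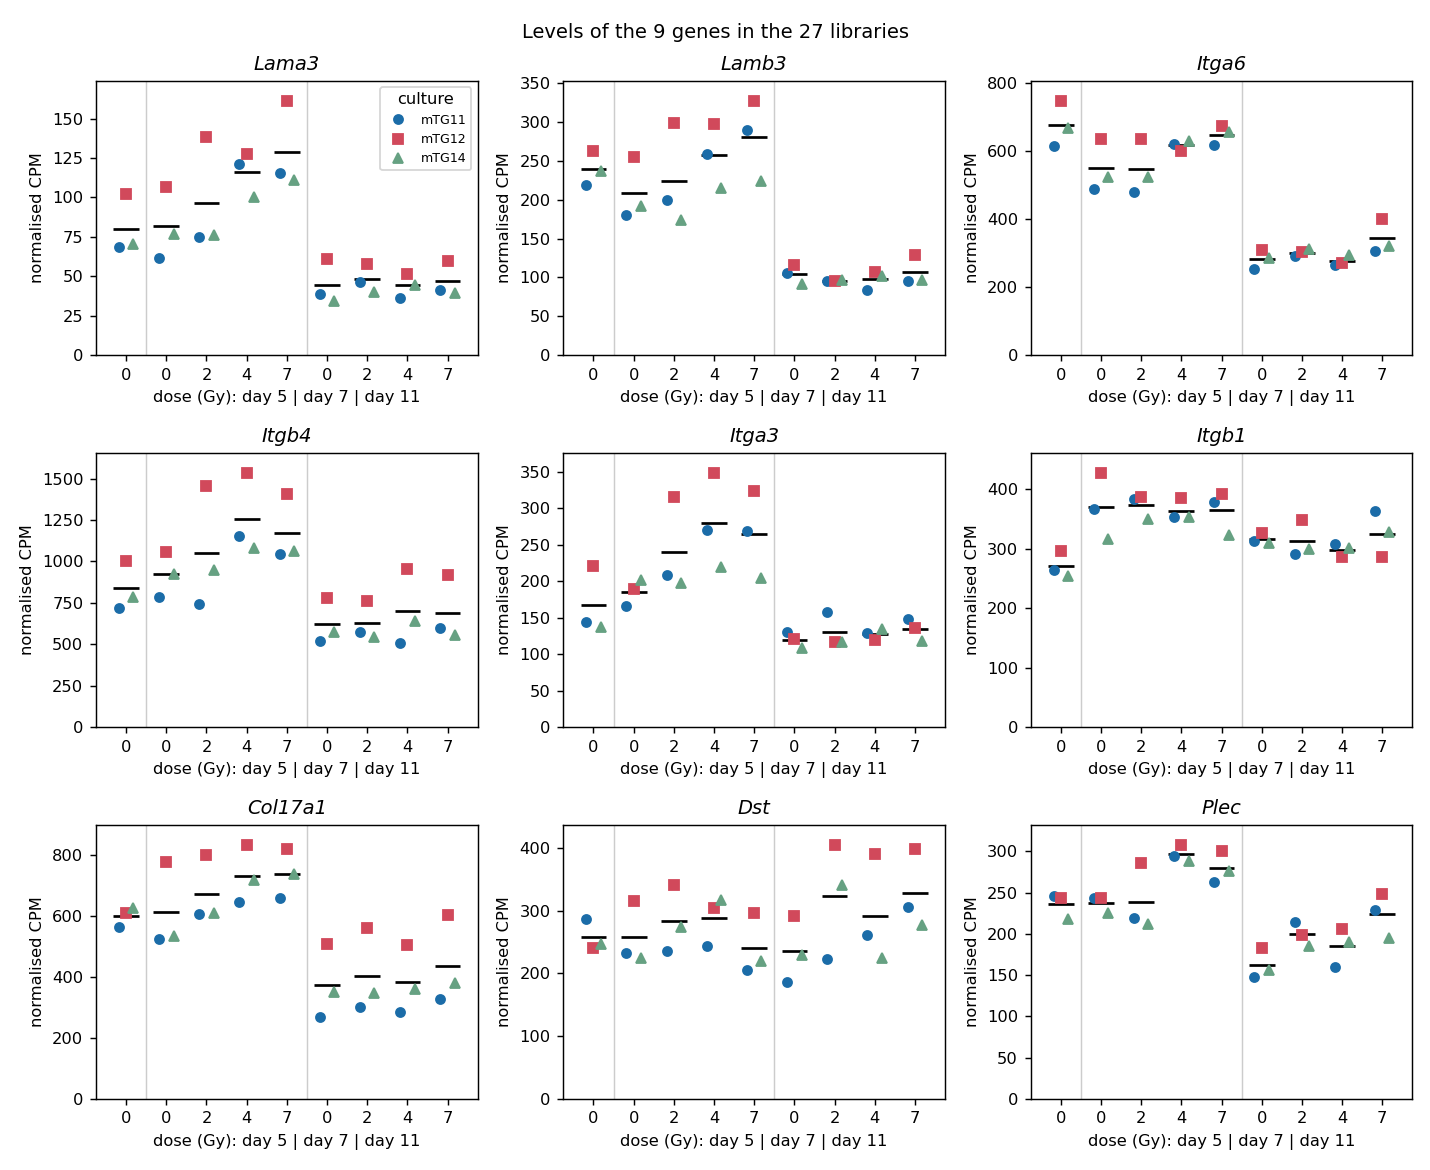
Normalised CPM (vertical axes, from 0) of the 9 genes in the 27 libraries by day and dose, with a point for each culture and a bar for the mean of 3 libraries. Except for Itgb1 and Dst, the day 11 points mostly lie lower. For Lamb3 all 12 day 11 libraries are at or below 128 CPM and all 15 earlier ones at or above 173. For Itgb4, Itga3, Col17a1 and Plec some day 11 points lie among earlier ones, as Plec at 7 Gy with 229 and 249 in mTG11 and mTG12.

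Lamb3 encodes the β3 chain, which occurs in laminin-332. Its levels in the 3 non-irradiated libraries were 219, 262 and 237 normalised CPM at day 5, 181, 255 and 191 at day 7 and 106, 116 and 91.4 at day 11. Every day 11 value was below every earlier one. The log2 fold change from day 7 to day 11 was -1.01 ± 0.14 (SE; edgeR adjusted p = 3.03e-04), and from day 5 to day 11 it was -1.19 ± 0.14 (edgeR adjusted p = 3.07e-05). Lama3 encodes the α3 chain, and its levels were 68.5, 102 and 70.4 at day 5, 61.9, 106 and 76.7 at day 7 and 38.6, 60.9 and 34.5 at day 11. The day 11 values were again the 3 lowest, although culture mTG12 at day 11 came close to culture mTG11 at day 7. Lama3 changed by -0.88 ± 0.24 from day 7 (edgeR adjusted p = 0.0229) and by -0.83 ± 0.25 from day 5 (edgeR adjusted p = 0.0168). Both Lama3 calls were lost without the day 11 library of mTG11 (adjusted p = 0.0865 and 0.0646), without that of mTG14 (0.0885 and 0.0667), or without the earlier mTG12 library of the comparison (0.0918 and 0.0728), whereas the Lamb3 calls held in each of 9 such fits. With the culture as a block in the fit, Lama3 changed by -0.88 ± 0.11 from day 7 to day 11 (edgeR adjusted p = 4.23e-05). From day 5 to day 11 its blocked change was -0.84 ± 0.11 (edgeR adjusted p = 2.72e-05). Between day 5 and day 7 neither chain was called, with log2 fold changes of -0.18 ± 0.14 for Lamb3 and 0.04 ± 0.24 for Lama3.

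Itga6 and Itgb4 encode the 2 subunits of the hemidesmosomal integrin, and Itga6 showed the larger fall. Itga6 levels were 616, 747 and 669.6 normalised CPM at day 5, 488, 637 and 525 at day 7 and 253, 308 and 287 at day 11. All 3 cultures went down at each step, and the groups of days 5 and 7 overlapped while day 11 lay well below both. From day 7 to day 11 the log2 fold change was -0.96 ± 0.12 (edgeR adjusted p = 1.47e-04) and from day 5 to day 11 -1.25 ± 0.12 (edgeR adjusted p = 6.46e-06). Between days 5 and 7 the change was -0.29 ± 0.12 (edgeR adjusted p = 0.111), which was not called. It was called with the culture as a block (-0.29 ± 0.08, edgeR adjusted p = 0.012; 25.0% of all genes), without TMM scaling (0.021) and without the filter on low counts (0.0454). The blocked call was lost without mTG11 (adjusted p = 0.0557) or mTG14 (0.122).

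Itgb4 levels were 721, 1004 and 786 at day 5, 786, 1057 and 922 at day 7 and 519, 778 and 574 at day 11. The day 11 value of culture mTG12 lay between the day 5 values of the other cultures, so days 5 and 11 overlapped, while days 7 and 11 were separated narrowly. Itgb4 fell by 0.57 on the log2 scale from day 7 to day 11 (SE 0.17, edgeR adjusted p = 0.0306). The change from day 5 to day 11, -0.41 ± 0.17, was not called (edgeR adjusted p = 0.0666) but was called under 5 other settings, among them DESeq2 (adjusted p = 0.0248) and the culture block (-0.42 ± 0.08, edgeR adjusted p = 5.13e-04). The 3 cultures moved by -0.48 to -0.37. Without the block, the call from day 7 to day 11 was lost without any of 4 libraries: mTG12 at day 7 (adjusted p = 0.11), mTG14 at day 7 (0.073), mTG11 at day 11 (0.112) or mTG14 at day 11 (0.100). With the block it held without each culture in turn.

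The other laminin-binding integrin gave a split picture, with a called fall of its α3 subunit and no called fall of β1. Itga3 levels were 144, 221 and 137 normalised CPM at day 5, 166, 189.5 and 201 at day 7 and 129.6, 121 and 109 at day 11. The 3 day 11 values were the lowest, and the day 5 group was spread widely by culture mTG12. Itga3 changed by -0.64 ± 0.16 from day 7 to day 11 (edgeR adjusted p = 0.0141) and by -0.47 ± 0.16 from day 5 (edgeR adjusted p = 0.0343). The first call was lost without either mTG14 library (adjusted p = 0.0545 at day 7 and 0.0573 at day 11), and the second without mTG12 at day 5 (0.152, log2 fold change -0.23), mTG12 at day 11 (0.0711) or mTG14 at day 11 (0.107). With the culture block Itga3 changed by -0.63 ± 0.13 from day 7 to day 11 (edgeR adjusted p = 0.00339). From day 5 to day 11 its blocked change was -0.45 ± 0.14 (edgeR adjusted p = 0.0164).

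Itgb1, which pairs with many α subunits besides α3, went the other way early. Its levels were 264, 296 and 254 at day 5, 367, 427 and 317 at day 7 and 313, 326 and 310.2 at day 11. Day 5 was below both later groups without overlap. Itgb1 was the 1 gene of the 9 called between day 5 and day 7, with a log2 fold change of 0.46 ± 0.11 (edgeR adjusted p = 0.00914), in a comparison where 21.6% of all genes were called and 12.0% as higher. Without either mTG12 library of that comparison 2 of the 9 were called. Without TMM scaling the Itgb1 change was 0.32 and lost its call (adjusted p = 0.0722). From day 7 to day 11 it changed by -0.23 ± 0.11 (edgeR adjusted p = 0.155), which was not called. From day 5 to day 11 it changed by 0.23 ± 0.11 (edgeR adjusted p = 0.103), called only with the culture block (0.24 ± 0.09, edgeR adjusted p = 0.0377), and there lost without mTG11 (adjusted p = 0.174) or mTG14 (0.213). Reads of Itgb4 per read of Itgb1 numbered 3.07 ± 0.334 at day 5, 2.51 ± 0.387 at day 7 and 1.96 ± 0.377 at day 11 (SD, n = 3), and reads of Itga6 per read of Itga3 4.17 ± 0.753, 2.97 ± 0.376 and 2.38 ± 0.371.

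Col17a1 encodes collagen XVII, also known as BP180. Its levels were 562, 609 and 624 normalised CPM at day 5, 524, 777 and 534 at day 7 and 268, 506 and 349 at day 11. Every day 11 library was lower than all 6 earlier ones, most narrowly for culture mTG12 at day 11 against mTG11 at day 7. Col17a1 fell by 0.71 on the log2 scale from day 7 to day 11 (SE 0.21, edgeR adjusted p = 0.028) and by 0.66 from day 5 (SE 0.21, edgeR adjusted p = 0.0214). DESeq2 did not call the first of these (adjusted p = 0.061). The calls were lost without mTG11 at day 11 (adjusted p = 0.0902 against day 7 and 0.074 against day 5), without mTG14 at day 11 (0.0885 and 0.067), and without mTG12 at day 7 (0.113) or mTG14 at day 5 (0.0572) respectively. With the culture block both held without each culture in turn.

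Plec encodes plectin, which links integrin β4 to keratin filaments, and it did not pass the test until after day 7. Its levels were 246, 243 and 218 normalised CPM at day 5, 244, 244 and 226 at day 7 and 148, 183 and 157 at day 11. The earlier groups lay on top of each other and all day 11 values below them. The log2 fold change was 0.03 ± 0.10 to day 7, -0.55 ± 0.10 from day 7 to day 11 (edgeR adjusted p = 0.00158) and -0.52 ± 0.10 from day 5 to day 11 (edgeR adjusted p = 9.61e-04), and the last 2 were called in each of 9 fits that left out 1 library. Dst encodes the other plakin, dystonin, and its levels were 286, 240.4 and 247 at day 5, 232, 315 and 224 at day 7 and 186, 292 and 229.6 at day 11. The 3 groups overlapped. None of the time comparisons of Dst was called, with log2 fold changes of 0.01 ± 0.17, -0.13 ± 0.17 and -0.12 ± 0.17.

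From day 5 to day 11, 6 of the 9 genes were called as lower and none as higher, where 41.3% of all genes were called and 20.1% as lower. Without mTG14 at day 11, 3 were called. With the culture block 7 were lower and 1, Itgb1, higher, against 43.6% of all genes called. The median of the 9 genes was -0.52 against 0.060 over all genes. These 3 time comparisons share libraries, so their values stand side by side and not as separate evidence. Without TMM scaling the median of all genes moved from 0.037 to -0.11 for day 7 against day 5 and from 0.060 to -0.083 for day 11 against day 5, whereas the fall from day 7 to day 11 was hardly touched.

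**Figure D2:**
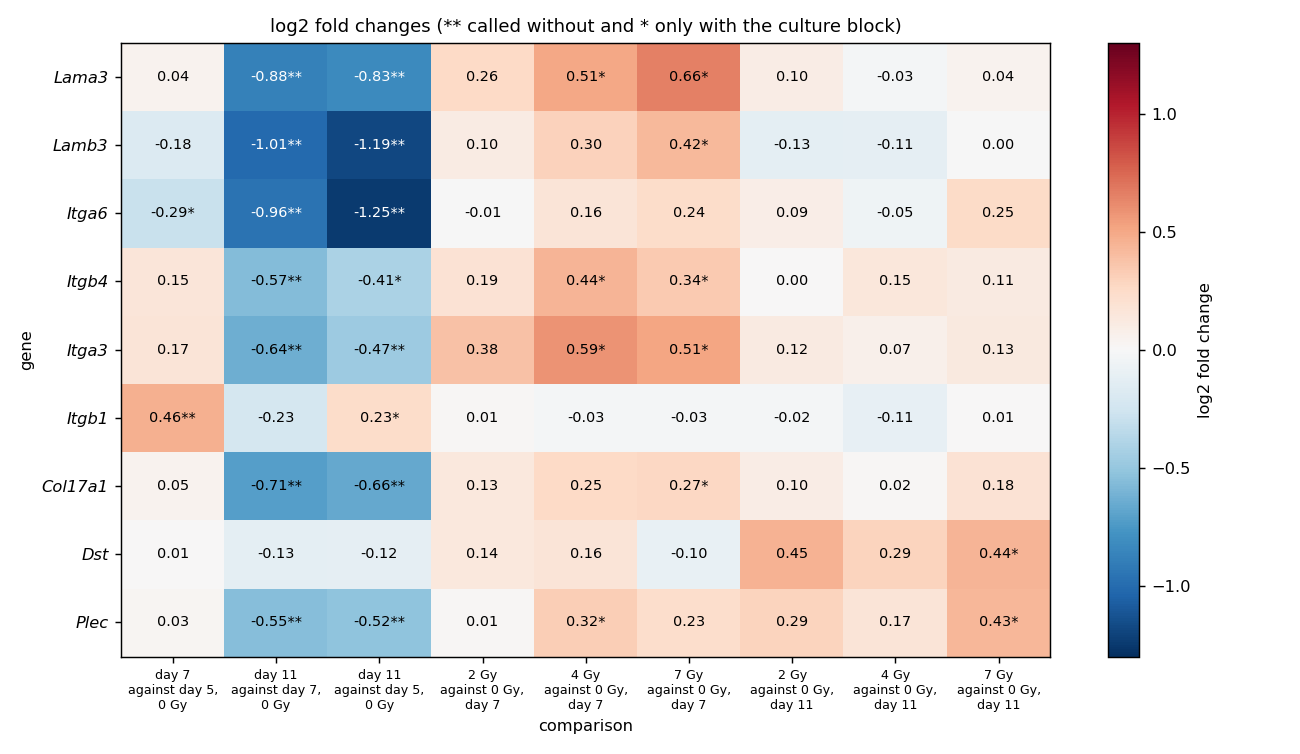
Log2 fold changes (colour and printed value) of the 9 genes (rows) in 9 comparisons (columns), with 2 asterisks where called without the culture block and 1 where called only with it. The day 11 columns against days 5 and 7 are deeper blue for 7 genes, and 4 and 7 Gy at day 7 are mostly red.

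Other basal genes fell together with the anchoring genes, though not all of them. The summed level of the 6 basal epithelial markers was 10114 ± 830.1 CPM at day 7 and 4814 ± 845 at day 11. Krt5 and Krt14 weigh most in this sum, with means of 4018 and 3335 CPM over the 27 libraries. From day 7 to day 11, where 11.7% of all genes were called as lower, 3 of the 6 markers were called as lower and none as higher. The 3 lower markers were Krt14, with a log2 fold change of -1.73 ± 0.24 (edgeR adjusted p = 2.94e-04), Krt5, with -0.90 ± 0.11 (edgeR adjusted p = 9.45e-05), and Trp63, which encodes the p63 transcription factor of basal cells, with -0.80 ± 0.15 (edgeR adjusted p = 0.00211). Krt15 had mean levels of 492 ± 118, 945 ± 234 and 800.2 ± 61.6 CPM at days 5, 7 and 11, and Ngfr 46.6 ± 12.6, 96.0 ± 15.3 and 84.0 ± 10.7. From day 5 to day 7, 2 of the 6 markers were called as higher, as were 12.0% of all genes. From day 5 to day 11, 2 were called as higher and 3 as lower, where 41.3% of all genes were called and 20.1% as lower. Of 8 suprabasal squamous genes 6 were lower at day 11 than at day 7, with sums of 7400.1 ± 1906 and 3694 ± 743, whereas all 4 multiciliated cell genes were higher, with sums of 5.13 ± 1.90 and 49.8 ± 15.6. Of the 5 thyroid follicular genes tested, 2 were higher, and of 8 fibroblast genes 2 were lower, to which the block added Col1a1 and Lum. The part of these marker shifts in the fall of the 9 genes was not tested.

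At day 7, 2 days after irradiation, most of the 9 genes had higher means at 4 and 7 Gy than at 0 Gy, but none was called in the fit without the culture block. Their median log2 fold changes at 2, 4 and 7 Gy were 0.13, 0.30 and 0.27, beside 0.0032, 0.013 and 0.0084 over all 19346 genes tested. Of all genes, 0.124%, 1.63% and 6.95% were called. At an unadjusted p under 0.05 the counts of the 9 were 0, 2 and 3, beside 1629, 2901 and 4112 of the 19346 genes tested. DESeq2 called none of the 9. Without the filter on low counts, 3 of the 9 were called at 4 Gy and 4 at 7 Gy, beside 1263 and 2211 of all genes. Without the mTG12 library at 2 Gy, 1 of the 9 was called at 7 Gy. With the block, which compares each culture with itself, 4 of the 9 were called as higher at 4 Gy (Itga3, Itgb4, Lama3 and Plec) and 5 at 7 Gy (Itga3, Itgb4, Lama3, Lamb3 and Col17a1), and none as lower. The background with the block was 0.713%, 5.22% and 11.3% of all genes, with 2.84% and 5.34% higher at 4 and 7 Gy. At 2 Gy the block called none of the 9.

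Lama3 showed the largest change at 7 Gy. Its day 7 levels were 61.9, 106 and 76.7 normalised CPM at 0 Gy, 75.0, 138 and 75.9 at 2 Gy, 121, 127 and 100.3 at 4 Gy and 115, 161 and 111 at 7 Gy. The 0 and 7 Gy groups did not overlap, and each culture rose by 0.53 to 0.90 on the log2 scale. With the block the log2 fold change at 7 Gy was 0.66 ± 0.13 (edgeR adjusted p = 0.00258), and without it 0.66 ± 0.24 (edgeR adjusted p = 0.119). The blocked call held without each culture in turn, with adjusted p from 0.00515 to 0.0309. At 4 Gy it was 0.53 ± 0.13 with the block (edgeR adjusted p = 0.0241), which was lost without mTG11 (adjusted p = 0.321) or mTG14 (0.0954).

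Lamb3, its partner chain, had day 7 levels of 199.8, 298 and 173 at 2 Gy, 259, 298 and 215 at 4 Gy and 289, 326 and 224 at 7 Gy, beside 181, 255 and 191 at 0 Gy. The groups overlapped, yet each culture was higher at 4 and at 7 Gy than its own non-irradiated library. The blocked log2 fold change at 7 Gy was 0.42 ± 0.10 (edgeR adjusted p = 0.00956) against 0.42 ± 0.20 without the block (edgeR adjusted p = 0.243). It was lost without mTG11 (adjusted p = 0.191).

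Itga3 had day 7 levels of 166, 189.5 and 201 normalised CPM at 0 Gy, 269.8, 348 and 219 at 4 Gy and 268, 323 and 204 at 7 Gy. The groups did not overlap at either dose, but culture mTG14 barely moved at 7 Gy. With the block the log2 fold change was 0.55 ± 0.13 at 4 Gy (edgeR adjusted p = 0.0162) and 0.48 ± 0.13 at 7 Gy (edgeR adjusted p = 0.0201), compared with adjusted p = 0.183 and 0.156 without it. Both blocked calls were lost without mTG11 (adjusted p = 0.201 and 0.233) or mTG12 (0.153 and 0.143), and without mTG14 the change at 4 Gy was 0.78 (adjusted p = 0.00300).

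Itgb4 had day 7 levels of 1151, 1533 and 1082 at 4 Gy and 1046, 1404 and 1061 at 7 Gy, beside 786, 1057 and 922 at 0 Gy. The 4 Gy group lay wholly above the 0 Gy group, and 7 Gy overlapped it by 1 library. The blocked log2 fold changes were 0.44 ± 0.10 (edgeR adjusted p = 0.0162) and 0.34 ± 0.10 (edgeR adjusted p = 0.0383), with adjusted p = 0.341 and 0.38 without the block. Leaving out any culture ended the 7 Gy call (adjusted p = 0.153, 0.0906 and 0.0907 without mTG11, mTG12 and mTG14), and leaving out mTG11 (0.13) or mTG12 (0.0625) ended that at 4 Gy. Its partner Itga6 was not called at either dose, with blocked log2 fold changes of 0.17 ± 0.09 and 0.24 ± 0.09. Itgb1 had -0.02 ± 0.08 and -0.02 ± 0.08, the smallest sizes of the 9 at both doses.

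Among the remaining genes, Col17a1 was called at 7 Gy with the block (0.28 ± 0.08, edgeR adjusted p = 0.0277; 0.357 without it), and lost without mTG11 (adjusted p = 0.222) or mTG14 (0.351). Its day 7 levels were 524, 777 and 534 normalised CPM at 0 Gy and 659, 818 and 737 at 7 Gy. Plec was called at 4 Gy with the block, from 244, 244 and 226 to 294, 308 and 289 (0.32 ± 0.09, edgeR adjusted p = 0.0418; 0.169 without it), in groups that did not overlap. That call was lost without any 1 culture, with adjusted p from 0.0821 to 0.214. Dst was not called at any dose at day 7, and it was lower at 7 Gy in all 3 cultures by 0.033 to 0.18 on the log2 scale. Without overlap between the groups, 3 of the 9 genes were higher at 4 Gy (Itga3, Itgb4 and Plec), where 11.9% of all genes were, and 3 at 7 Gy (Itga3, Lama3 and Plec), where 13.8% were.

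**Figure D3:**
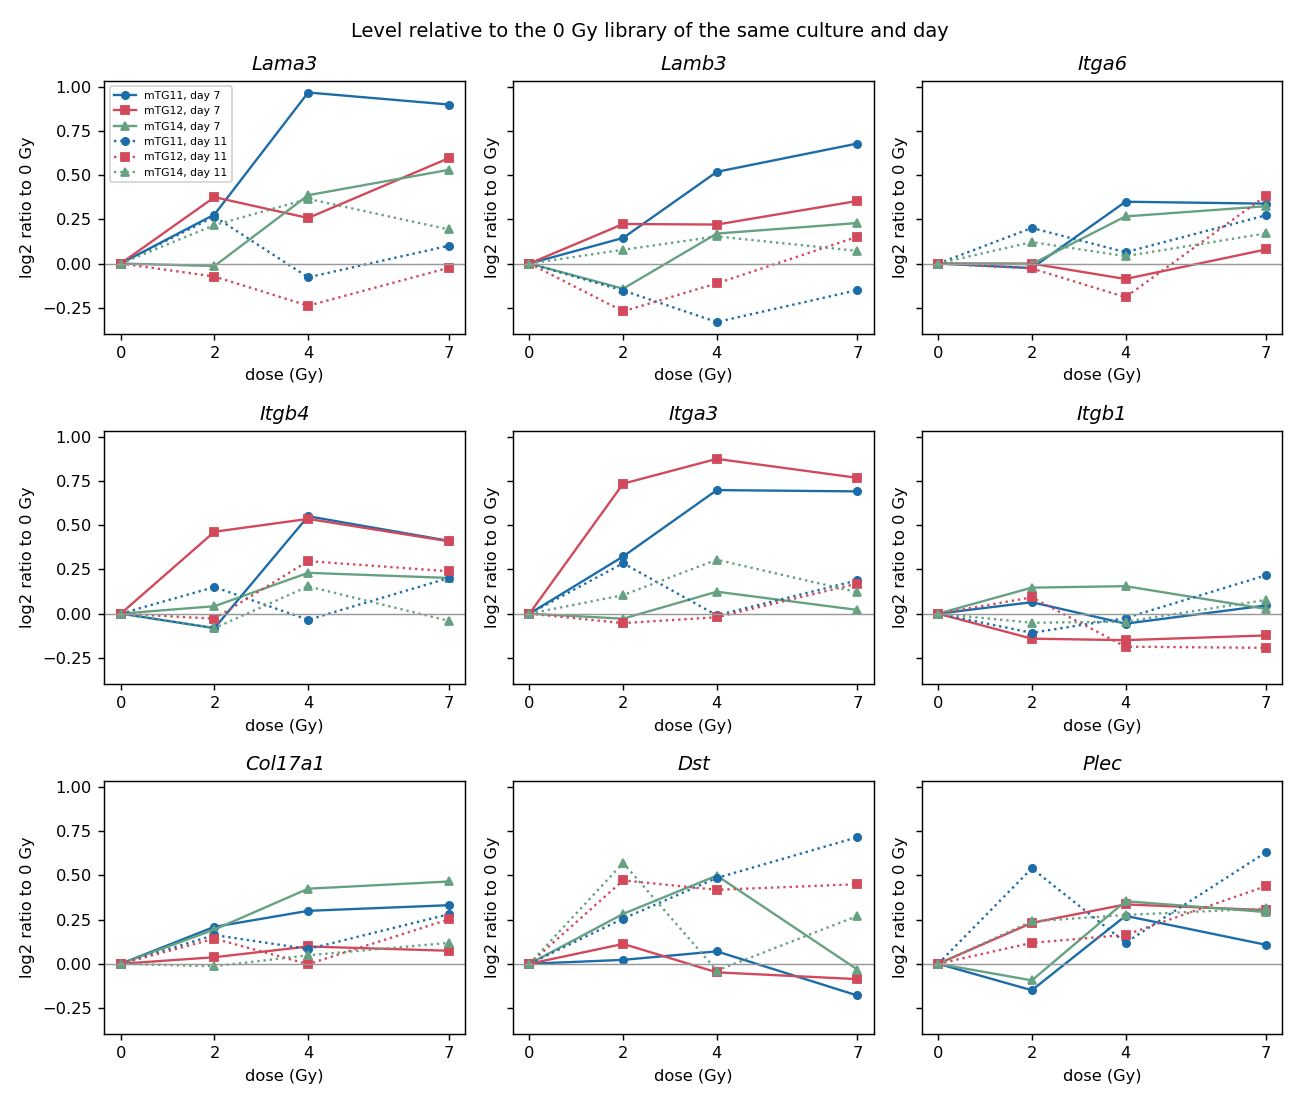
Log2 ratio (vertical axis) of each irradiated library to the 0 Gy library of the same culture and day, against dose in Gy, with solid lines for day 7 and dotted lines for day 11. Lama3 at 7 Gy and day 7 lies between 0.53 and 0.90 in the 3 cultures and between -0.024 and 0.19 at day 11, while for Dst and Plec the day 11 lines are the higher ones at 7 Gy.

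Of the 6 basal cell markers at 7 Gy and day 7, 2 were called, both as lower, with and without the block. Of all genes, 11.3% were called with the block and 6.95% without it. Trp63 was lower (-0.64 ± 0.10, edgeR adjusted p = 0.00217) and so was Ngfr (-1.11 ± 0.32, edgeR adjusted p = 0.0495). Without the block the Ngfr call was kept in 2 of the 12 fits that left out 1 library, those without mTG12 at 2 Gy or at 4 Gy (adjusted p up to 0.162 in the others), and with the block its adjusted p was 7.75e-05 (edgeR). The other 4 were not called, and their blocked log2 fold changes were 0.14 ± 0.08 for Krt5, 0.27 ± 0.10 for Krt14, 0.35 ± 0.11 for Krt15 and 0.35 ± 0.13 for Cdh3 (edgeR adjusted p from 0.057 to 0.271). Without the block the median of the 6 was 0.20, beside 0.27 for the 9 genes. The sum of the 6 basal genes, in which Krt5 and Krt14 weigh most, was 10114 ± 830.1 CPM at 0 Gy and 11576 ± 958 at 7 Gy. Of 8 fibroblast genes none was called without the block and Dcn with it, with sums of 70.5 ± 47.4 and 90.1 ± 36.6.

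At day 11, 6 days after irradiation, none of the 9 genes was called in the fit without the block, where 0%, 0.00502% and 1.52% of all genes were called at 2, 4 and 7 Gy. At an unadjusted p under 0.05 there were 1, 0 and 2 of the 9, beside 1159, 1501 and 2961 of the 19901 genes tested. DESeq2 called 0, 0 and 1 of the 9 (Plec, adjusted p = 0.0442). Without the filter on low counts the called genes of the 9 numbered 1 at 2 Gy and 2 at 7 Gy, beside 267 and 1205 of all genes. The median of the 9 genes was 0.10, 0.02 and 0.13, beside -0.0086, -0.0085 and 0.0055 over all 19901 genes tested. At 7 Gy the log2 fold changes without the block were 0.04 ± 0.22 for Lama3, -0.00091 ± 0.13 for Lamb3 and 0.13 ± 0.13 for Itga3. For Itgb4 the value was 0.11 ± 0.24 and for Col17a1 0.18 ± 0.30. Itga6 had 0.25 ± 0.11 at day 11, beside 0.24 ± 0.11 at day 7. At day 11 and 7 Gy, Itga3, Itga6 and Col17a1 were each higher than 0 Gy in all 3 cultures. At 4 Gy the Itgb1 group lay wholly below 0 Gy, which 4.91% of all genes did, and Itgb1 was not called. With the block, 2 of the 9 genes were called at 7 Gy, both plakins and both higher, and none at 2 or 4 Gy, against 0.362%, 1.20% and 6.52% of all genes.

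Plec had day 11 levels of 148, 183 and 157 normalised CPM at 0 Gy, 215, 199 and 185 at 2 Gy, 160.4, 205 and 189.8 at 4 Gy and 229, 249 and 195 at 7 Gy. The groups at 2 and 7 Gy lay wholly above 0 Gy, which 5.83% and 12.6% of all genes did. At 7 Gy the blocked log2 fold change was 0.43 ± 0.10 (edgeR adjusted p = 0.0131), with adjusted p = 0.108 without the block. It was lost without any 1 culture, with adjusted p from 0.0505 to 0.102. Dst had 186, 292 and 229.6 at 0 Gy and 306, 398 and 277 at 7 Gy. The groups overlapped, but each culture was higher than its own control. The blocked change was 0.45 ± 0.13 (edgeR adjusted p = 0.0474; 0.438 without the block), and it was lost without mTG11 (adjusted p = 0.24) or mTG12 (0.144).

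Whether the response to a dose differed between days 7 and 11 was tested as an interaction over 24 libraries. None of the 9 genes was called at any dose without the block, where 0%, 0.109% and 3.02% of all genes were, none had an unadjusted p under 0.05, and DESeq2 called none. With the block, Dst alone was called at 7 Gy, with a difference of 0.59 ± 0.17 on the log2 scale (edgeR adjusted p = 0.0413; 0.57 ± 0.32 and 0.453 without it), against 0.00912%, 0.597% and 5.27% of all genes at 2, 4 and 7 Gy. It was also called without the filter on low counts (adjusted p = 0.0175). It was lost without mTG11 (adjusted p = 0.453) or mTG12 (0.141). For Lama3 the difference at 7 Gy was -0.59 ± 0.18 (edgeR with the block, adjusted p = 0.0557), so a smaller response at day 11 was not shown for it. Nor was it shown for Lamb3 (-0.40 ± 0.16, edgeR with the block, adjusted p = 0.19) or Itga3 (-0.33 ± 0.22, adjusted p = 0.49).

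The lower level at day 11 was also seen among irradiated organoids. At 2 Gy 6 of the 9 genes were lower at day 11 than at day 7 without overlap of the groups (15.4% of all genes), at 4 Gy 8 (17.0%) and at 7 Gy 7 (14.8%). Dst was the 1 gene outside these sets at every dose. At 7 Gy the mean at day 11 over the mean at day 7 ranged from 0.363 for Lama3 to 1.36 for Dst.

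Over all 9 groups the order of mean levels separated the days more than the doses. For Lamb3 the order ran from day 7 at 7 Gy (279.96 ± 51.8) over 4 Gy (257 ± 41.3), day 5 (239 ± 22.0) and day 7 at 2 Gy (224 ± 65.8) and 0 Gy (209 ± 40.4) to day 11 at 7 Gy (107 ± 18.8), 0 Gy (104 ± 12.2), 4 Gy (97.6 ± 11.9) and 2 Gy (95.8 ± 0.593). For Lama3 it ran from day 7 at 7 Gy (129 ± 27.7), 4 Gy (116 ± 14.1), 2 Gy (96.4 ± 36.2) and 0 Gy (81.7 ± 22.7) over day 5 (80.3 ± 18.8) to day 11 at 2 Gy (48.1 ± 8.96), 7 Gy (46.9 ± 11.2), 0 Gy (44.7 ± 14.2) and 4 Gy (44.2 ± 7.51). For Itga6 it ran from day 5 (677 ± 65.9) over day 7 at 7 Gy (649 ± 28.5), 4 Gy (617 ± 16.4), 0 Gy (549.9 ± 77.4) and 2 Gy (546 ± 80.9) to day 11 at 7 Gy (344 ± 51.2), 2 Gy (302 ± 10.2), 0 Gy (283 ± 27.5) and 4 Gy (277 ± 16.1). In each of these 3 genes the single step without overlap between neighbours was the one into the day 11 groups.

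For the other 6 genes all neighbours in the order overlapped. Itgb4 ran from 1255 ± 243 (day 7, 4 Gy) to 624 ± 137 (day 11, 0 Gy), Itga3 from 279 ± 64.9 (day 7, 4 Gy) to 119.7 ± 10.5 (day 11, 0 Gy), and Col17a1 from 738 ± 79.5 (day 7, 7 Gy) to 374 ± 121 (day 11, 0 Gy). Plec ran from 297 ± 9.89 (day 7, 4 Gy) to 163 ± 18.6 (day 11, 0 Gy). The course was different for Itgb1, which ran from 374 ± 20.2 (day 7, 2 Gy) to 271 ± 21.9 (day 5), and for Dst, which ran from 327 ± 63.4 (day 11, 7 Gy) to 236 ± 53.0 (day 11, 0 Gy). Thus the day 11 group without irradiation was the lowest for 5 of the 9 genes.

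The 3 cultures differed steadily in several of these genes. Culture mTG12 had the highest level of the 3 in 9 of 9 groups for Itgb4 and for Lama3, which 0.608% of 13155 expressed genes did, and in 8 of 9 for Lamb3 and Col17a1, which 1.96% did at least as often. It exceeded the mean of the other cultures by 0.54 on the log2 scale for Lama3, 0.53 for Itgb4, 0.50 for Col17a1, 0.40 for Dst, 0.32 for Lamb3, 0.23 for Itga3, 0.17 for Plec, 0.16 for Itga6 and 0.09 for Itgb1. For Lama3 this was about as large as the blocked change at 4 Gy.

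Several of the 9 genes varied together over the 27 libraries. These correlations of log2 normalised CPM describe libraries that share days, doses and cultures. Pearson's r was 0.96 between Itga6 and Lamb3, 0.94 between Lama3 and Lamb3, 0.94 between Itgb4 and Lama3 and 0.92 between Itgb4 and Col17a1. After the group means were removed, r was 0.66, 0.86, 0.90 and 0.84 for the same pairs. Dst had r from -0.11 to 0.28 with the other 8 genes, but within groups 0.83 with Col17a1 and 0.71 with Itgb4.

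Those most like each of the 9 over the 27 libraries were sought by the same r among 9529 genes whose mean level reached 10 CPM. Itgb4 was most like Lama3 and Col17a1, both among the 9. Among the genes most like Itga3 was Fscn1 (0.924), and among those most like Lama3 was Cd44 (0.953). Itga6 was most like Mdh2 (0.972) and Krt14 (0.971), and Lamb3 most like Pfn1 (0.969). Col17a1 was most like Hacd2 (0.930) and Tgfbi (0.929), and Plec most like Flrt2 (0.917). The lowest top values were those of Itgb1 with Dynlt3 (0.811) and of Dst with Macf1 (0.803), another plakin.

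Genes of the same adhesion system outside the 9 were described from 4 lists. From day 5 to day 11, 41.3% of all genes were called, 20.1% as lower. At 7 Gy the share was 6.95% at day 7 and 1.52% at day 11, and 11.3% and 6.52% with the block. Of 6 other laminin chains tested (of 8 listed), 4 were higher and 1 lower at day 11 than at day 5. Lama5, the α5 chain of laminin-511 and laminin-521, had mean levels of 22.1 ± 3.58, 29.1 ± 6.13 and 57.6 ± 10.6 normalised CPM at days 5, 7 and 11 (SD, n = 3) and rose by 1.40 ± 0.18 on the log2 scale from day 5 (edgeR adjusted p = 7.11e-05). The β chains Lamb1 (0.89 ± 0.26, edgeR adjusted p = 0.0154) and Lamb2 (0.98 ± 0.18, edgeR adjusted p = 7.78e-04) rose as well. Lamc1, the γ1 chain, was the gene that fell, by 0.52 on the log2 scale (SE 0.15, edgeR adjusted p = 0.0175), a call lost without mTG14 at day 5 or at day 11 (adjusted p up to 0.0928). That of Lamb1 was lost without mTG14 at day 5 or mTG12 at day 11 (adjusted p up to 0.0614). At 7 Gy and day 7, 1 of 7 was called, Lamb1, which was higher (0.71 ± 0.17, edgeR adjusted p = 0.0232). The block added Lamb2 as lower (-0.59 ± 0.15, edgeR adjusted p = 0.019), and at day 11 none of 6 was called at 7 Gy with or without it. The Lamb1 call at day 7 was lost without mTG11 or mTG14 at 0 Gy, or mTG11 or mTG12 at 7 Gy (adjusted p up to 0.104).

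Of 14 other basement membrane genes tested (of 16), 5 were higher and 2 lower at day 11 than at day 5, where 41.3% of all genes were called. Col4a4, an α4 chain of collagen IV, rose by 3.72 ± 0.39 (edgeR adjusted p = 1.28e-05) from 2.33 ± 1.17 normalised CPM, which is near the level of 3 reads. Col4a5 rose by 1.94 ± 0.28 and Npnt, the integrin ligand nephronectin, by 1.51 ± 0.19, while agrin (Agrn) rose by 0.46 ± 0.08. Col7a1, the anchoring fibril collagen that binds laminin-332, fell by 0.59 (SE 0.15, edgeR adjusted p = 0.00853), and Tinagl1 changed by -0.91 ± 0.19 (edgeR adjusted p = 0.00203). At 7 Gy, Npnt was higher at day 7 (1.10 ± 0.23, edgeR adjusted p = 0.0104), and at day 11 Col4a4 was lower (-1.32 ± 0.18, edgeR adjusted p = 0.0058) and the perlecan gene Hspg2 higher (0.75 ± 0.17, edgeR adjusted p = 0.0499). The Hspg2 call was kept in 2 of the 12 fits that left out 1 library, those without mTG11 or mTG14 at 4 Gy (adjusted p up to 0.174 in the others).

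Of 16 other integrins and laminin receptors, 4 were higher and 2 lower at day 11 than at day 5, where 41.3% of all genes were called. Itgb6 changed by 1.37 ± 0.29 (edgeR adjusted p = 0.00218), Itgb5 by 0.55 ± 0.15 and the syndecan Sdc4 by 0.75 ± 0.08, while the laminin receptors Dag1 (-0.36 ± 0.08) and Bcam (-0.39 ± 0.13) fell. Sdc1 was not called (0.10 ± 0.10, edgeR adjusted p = 0.484). At 7 Gy and day 7, Bcam (-0.61 ± 0.11, edgeR adjusted p = 0.00389) and Dag1 (-0.36 ± 0.09, edgeR adjusted p = 0.0262) were lower. The Dag1 call was lost without any 1 of the 0 Gy libraries or mTG12 at 7 Gy (adjusted p up to 0.116). With the block Itgb6 was called as higher (0.62 ± 0.18, edgeR adjusted p = 0.0292), and so were Itga3 and Itgb4 among the 9. Of 13 focal adhesion linkers, 2 were higher (Actn4, 0.26 ± 0.09, and Parva, 0.71 ± 0.09) and 3 lower at day 11 (Actn1, -0.90 ± 0.15, Ptk2, -0.98 ± 0.18, and Fermt1, -0.73 ± 0.16). The Actn4 call was kept in 3 of the 9 fits that left out 1 library, those without mTG12 or mTG14 at day 7 or mTG12 at day 11 (adjusted p up to 0.159 in the others). None of the 13 was called at 7 Gy without the block. At day 7 the block called Actn1 (0.54 ± 0.10) and Fermt1 (0.39 ± 0.10) as higher and Tln2 (-0.61 ± 0.19) as lower (edgeR adjusted p = 0.00265, 0.0209 and 0.0466).

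**Figure D4:**
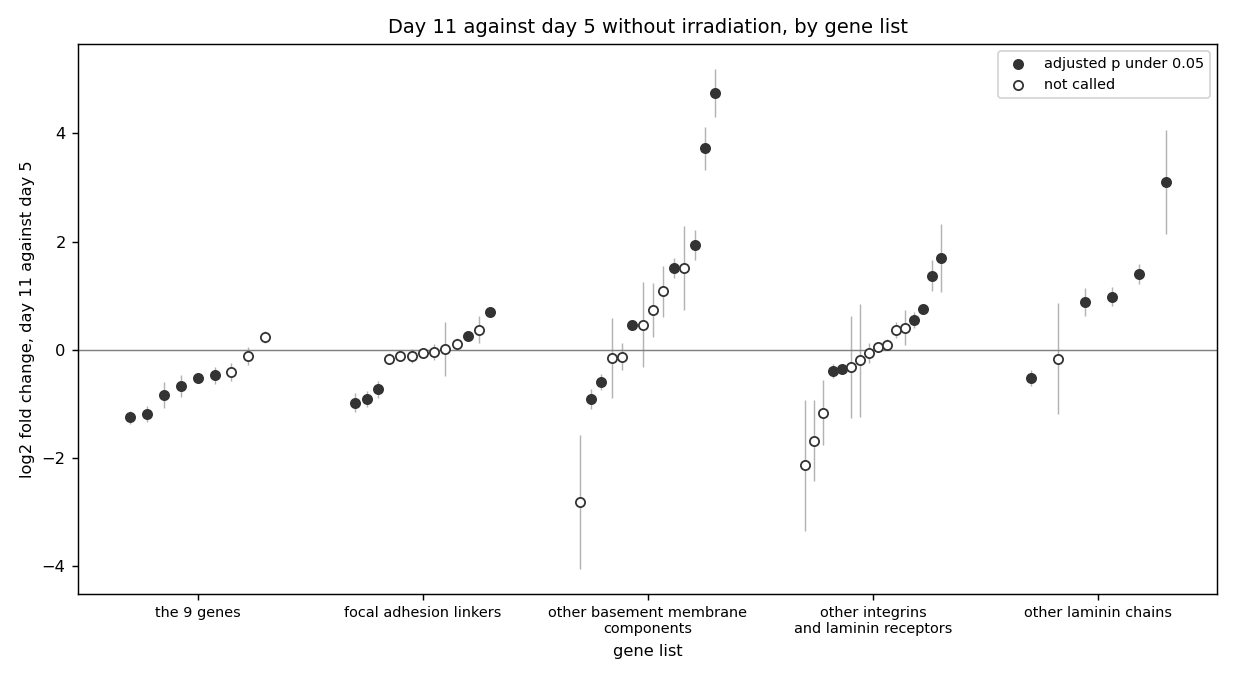
Log2 fold change from day 5 to day 11 without irradiation (vertical axis; bars are standard errors) for the 9 genes and 4 lists of related genes, with filled points where edgeR's adjusted p was under 0.05. The 6 called genes of the 9 lie between -1.25 and -0.47, whereas every other list holds called genes on both sides of 0. Of all genes 41.3% were called, 20.1% as lower.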

How the data were processed

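Poly(A) RNA of 27 mTGO libraries was sequenced by the study with Smart3SEQ, a 3′ end method, from 9 groups of 3 libraries. The authors deposited 1 table of estimated counts per gene for all libraries, not normalised. Of its non-zero values 56.3% were whole numbers, and the others held fractions of reads, as when a read is split between genes. The submitters' processing notes name GRCm39, STAR and edgeR without versions or roles, and the counting tool is not given in the sources used here. Fractions were most common for Itga6, Col17a1 and Dst, of which 40.7%, 7.41% and 11.1% of the values were whole.

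Counts were rounded and fitted with edgeR 4.0.16 (R 4.3.3; TMM, a minimum of 10 counts per gene over the fit, quasi-likelihood test, Benjamini-Hochberg adjusted p under 0.05 over all tested genes). Separate fits held the 9 non-irradiated libraries, the 12 of day 7, the 12 of day 11, and the last 24 together for the interactions. Fold changes carry standard errors. The scripts were tested on simulated counts. Alternatives were DESeq2 1.42.0, no TMM factors, other filters, only the 2 groups compared, each library left out, and the culture as a block. Leaving each culture out of the blocked fit was added after seeing the data.

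Groups came from the sample titles, which number the mice 1 to 3, while the series text names 4 mice. The table's columns carry the cultures mTG11, mTG12 and mTG14, which were not matched to mouse numbers. Each culture has 1 library in every group, and over 13155 genes the deviations from group means correlated between libraries of the same culture (mean r 0.274, from 0.0669 to 0.452 in 108 pairs), and the pairing comes from the culture names. The lowest chi-square per degree of freedom between 2 libraries of a group was 3.39, above counting noise.

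The 9 genes and all lists of markers and related genes were chosen with earlier results of these data known. Related genes are named by rule: in each list the 3 with the highest mean level and up to 3 with the largest called change for day 11 against day 5 and for 7 Gy at each day, with a mean of at least 10 CPM. Levels of Krt15, Ngfr and other markers were given beside results that they touch. Some genes are not reported here. Positions are from GENCODE vM39, and promoter windows from RefSeq matched exactly to GRCm39.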

Additional observations from a re-analysis of the deposited data

Results flagged for a closer look

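With the culture as a block, the response of Dst to 7 Gy was called as different between the 2 days. So was that of 5.27% of all genes. The response of Dst at day 11 minus that at day 7 was 0.59 ± 0.17 on the log2 scale (edgeR adjusted p = 0.0413, 24 libraries). At day 7 Dst was lower at 7 Gy in 3 of 3 cultures and at day 11 higher in 3 of 3. Without the block the difference was 0.57 ± 0.32 (edgeR adjusted p = 0.453). Leaving out 1 culture of the blocked fit gave 0.42 to 0.73, with adjusted p from 0.0315 to 0.453. The call was lost without mTG11 or mTG12.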

How the results depend on the processing

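From day 7 to day 11 and from day 5 to day 11, 6 to 8 of the 9 genes were called with DESeq2, without TMM factors, under both other filters, with only the compared groups and with the culture block, and 1 library left out gave 3 to 7 in each. The count of 8 is that with the block from day 5, of which 7 were lower. At day 7 against day 5 the count of 1 became 2 with no filter, 2 with the block and 1 to 2 with a library left out. The replicate block by culture raised the called members from 0 to 4 at 4 Gy and 5 at 7 Gy at day 7, to 2 at 7 Gy at day 11 and to 1 in the interaction at 7 Gy, and with no filter these were 3, 4, 2 and 1, with 1 at 2 Gy and day 11. The block ended no call of the 9 genes or of the listed markers and related genes, and it added calls among all 3. DESeq2 called 1 at 7 Gy and day 11, and a library left out 0 to 1 at 7 Gy and day 7. One culture left out of the blocked fit gave 6 to 7 called members from day 7 to day 11 and, in either direction, 7 to 8 from day 5 to day 11. It gave 1 to 3 members for day 7 against day 5, 0 to 2 at 4 Gy and 1 to 4 at 7 Gy at day 7, and 0 to 1 both at 7 Gy at day 11 and in the interaction at 7 Gy. The cause was not tested.

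Depth did not limit detection of the 9 genes, whose lowest level was 34.5 normalised CPM, and 3 libraries a group limit the precision. Counts over all genes moved as well. In the order default, DESeq2, no filter and culture block, they were 24, 59, 404 and 138 at 2 Gy and day 7, 0, 1, 267 and 72 at 2 Gy and day 11, 1, 37, 465 and 238 at 4 Gy and day 11, 0, 1, 95 and 2 for the interaction at 2 Gy and 24, 78, 400 and 131 for that at 4 Gy. For default, no filter and block they were 315, 1263 and 1009 at 4 Gy and day 7, 1345, 2211 and 2193 at 7 Gy and day 7, 302, 1205 and 1297 at 7 Gy and day 11, and 663, 1234 and 1156 for the interaction at 7 Gy. Fitting only the compared groups gave 7 at 2 Gy and day 7 and 0 at 4 Gy and day 11. Leaving out 1 library gave 8 to 26, 125 to 436 and 705 to 1568 at 2, 4 and 7 Gy at day 7, 0 to 1 and 60 to 368 at 4 and 7 Gy at day 11, and 0 to 1 and 6 to 64 for the interactions at 2 and 4 Gy. The cause was not tested.

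The directions that turned belong to changes that were not called. From day 5 to day 7, Lama3 was -0.11 without TMM factors and -0.20 to 0.24 with a library left out, Plec -0.0074 with DESeq2, -0.12 without TMM and -0.024 to 0.061, and Dst -0.024 with DESeq2, -0.14 without TMM, -0.0028 with the stricter filter, -0.016 with the block and -0.17 to 0.093. With a library left out, Dst ranged from -0.31 to 0.053 from day 7 to day 11 and from -0.30 to 0.033 from day 5, and Cdh3 from -0.19 to 0.053 from day 7 to day 11. In the blocked fit without 1 culture, Dst from day 5 to day 11 was -0.35 to 0.071, called without mTG12 alone. Sdc1 from day 5 to day 11 was -0.048 without TMM. At 7 Gy and day 11, Lamb3 was 0.0037 with DESeq2, 0.037 without TMM, 0.023 with no filter, 0.0062 with the stricter filter and -0.14 to 0.088 with a library left out, and Lama3 -0.16 to 0.33. In the blocked fit without 1 culture, Itgb1 at day 7 was -0.11 to 0.045 at 4 Gy and -0.061 to 0.041 at 7 Gy.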
